A study of Trichoderma reesei QM6a with 24 samples.

Results

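The genes described here are gna2 and gna3, which encode alpha subunits of heterotrimeric G proteins, and rgs1, which encodes a regulator of G-protein signalling, in the cellulase-producing fungus *Trichoderma reesei*. They are 3 of the 10879 gene models that were counted, chosen by name as the models TrA1190C (gna2, TRIREDRAFT_2845), TrC0722W (gna3, TRIREDRAFT_21505) and TrE0578W (rgs1, TRIREDRAFT_54395). Mycelium came from the deletion mutant QM6aΔ72004 and from its wild type (WT) QM6a, each grown in constant light and in constant darkness, with 5 mM L-methionine and without it. All 8 groups shared the minimal medium with cellulose as carbon source and the temperature of 28 °C. The sample labels give 72 h of growth, and the growth protocol gives 96 h. Each group has 3 libraries, and the labels name neither the number of mutant strains used nor separate cultures, so p-values measure the spread between these libraries, which may be technical. The title of the series names a receptor that couples to G proteins in the methionine response, which raises the question of how genes of G-protein signalling behave in these cultures. Whether this receptor acts through the products of the 3 genes was not tested.

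A G-protein coupled receptor at the cell surface acts on a heterotrimer of alpha, beta and gamma subunits, and the activated alpha subunit exchanges GDP for GTP and parts from the other two. Alpha subunits then act on effectors such as adenylate cyclase, whose product cAMP activates protein kinase A. Regulators of G-protein signalling speed up GTP hydrolysis by the alpha subunit and so end the signal. In *T. reesei*, GNA3 is known as a class III alpha subunit that acts on cAMP, and G-protein signalling is known to link light with cellulase gene expression.

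The gna2 model lies on unitig_0_consensus at 3855090 to 3856599 on the minus strand, with 5 exons, a coding length of 1065 bases and 445 bases of introns. The gna3 model lies on unitig_2_consensus at 2527100 to 2528522 on the plus strand and has 6 exons, a coding length of 1068 bases and 355 bases of introns. The 2 alpha subunit models thus have nearly equal coding lengths, 355 and 356 codons with the stop. The rgs1 model, on unitig_4_consensus at 1924168 to 1925948 on the plus strand, has 3 exons of 60, 1338 and 117 bases, so that its middle exon holds most of its 1515 coding bases. Coordinates are those of the count table, whose genome build is not named there. Names were assigned by matching span lengths in order along the contigs with those of a reference table, and each of the 3 genes has 3 neighbours of identical span, the fewest the match accepts.

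**Figure D1:**
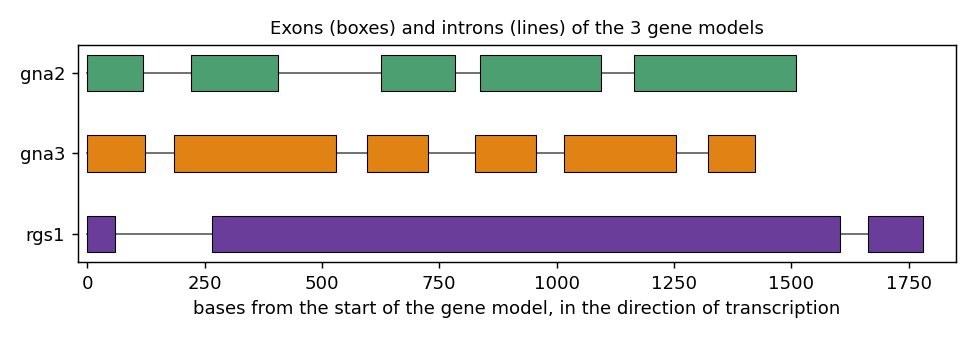
Exons (boxes) and introns (lines) of the gna2, gna3 and rgs1 gene models, drawn to scale in bases from the start of each model in the direction of transcription. The alpha subunit models have 5 and 6 exons of 100 to 346 bases, whereas rgs1 has 1 long middle exon of 1338 bases.

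Library totals ran from 13210988 to 21224989 counts, and 9308 models passed the filter on low counts, all 3 genes among them. The model linked to the deleted gene, TrE0303W, had no count in the 12 mutant libraries and 86 to 579 counts in the 12 WT libraries. A second model, TrC0447C, likewise had no count in the mutant libraries and 211 to 797 in the WT libraries, so the mutant differs from the WT at more than the deleted gene. Deletion effects below are comparisons of mutant and WT, and they cannot tell these differences apart. Library numbers form 1 consecutive run for darkness and another for light, and the labels name no batch. Lighting and anything that goes with these numbers cannot be told apart. The labelled mycelium could not be set against marker genes of mycelium, since no list marks it alone. Of 13 symbols listed for conidia and fruiting bodies 4 stand in the reference table, and hfb1, hfb2 and hfb3 among them were not linked. The 1 linked to a tested model was mata1, named for the mating-type locus. It lay between 35.4 and 145 CPM (counts divided by the scaled library total) in the light libraries and between 0.956 and 3.81 CPM in the dark libraries, and it fell with methionine in light (log2 fold change −1.57 in the mutant, −1.63 in the WT) and in darkness (−0.99 and −0.91). Whether mata1 marks such structures here was not tested, nor was its part in the lighting and methionine comparisons below.

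Over all libraries the 3 genes were well expressed, with 675 to 3309 counts in each library. Scaled per kilobase of coding length, gna3 averaged 103 CPM per kb, above 82.8% of tested models, gna2 78.1 CPM per kb (above 76.9%) and rgs1 53.2 CPM per kb (above 67.0%). The highest group mean exceeded the lowest 1.59-fold for gna2, 2.02-fold for gna3 and 3.03-fold for rgs1. The SD of the 8 group means on the log2 scale was 0.26 for gna2, 0.39 for gna3 and 0.61 for rgs1, against a median of 0.49 over all tested models. In a bulk sample, fewer hyphae that express a gene and less transcript per hypha cannot be told apart.

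The level of gna3 followed the medium. In light, the mutant libraries had 146, 156 and 156 CPM with methionine and 96.2, 86.6 and 92.9 CPM without it. WT libraries in light had 136, 141 and 116 CPM with methionine, against 89.6, 98.0 and 88.0 CPM without it. All libraries with methionine therefore lay above all libraries without it in light. In darkness, the mutant libraries had 136, 111 and 135 CPM with methionine and 71.6, 80.4 and 75.0 CPM without it. WT libraries in darkness had 123, 137 and 139.9 CPM with methionine, against 78.1, 76.8 and 75.7 CPM without it. The same separation by medium held in darkness. In order of group means, the mutant in light with methionine stood highest and apart from the next group. Its difference from the WT in light with methionine was not called (edgeR adjusted p = 0.344). The other 3 groups with methionine followed with overlapping values, then both groups in light without methionine, which overlapped each other, and last both groups in darkness without methionine, which also overlapped.

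The level of gna2 was low in darkness without methionine and similar elsewhere. In light, the mutant libraries had 97.5, 94.8 and 86.2 CPM with methionine and 90.7, 88.9 and 87.1 CPM without it. WT libraries in light had 83.5, 89.5 and 77.8 CPM with methionine, against 91.5, 92.2 and 96.3 CPM without it. The mutant groups overlapped here, and the WT groups did not, with the libraries with methionine lower. In darkness, the mutant libraries had 106, 90.4 and 84.7 CPM with methionine and 62.7, 66.3 and 68.3 CPM without it. WT libraries in darkness had 88.1, 91.3 and 85.9 CPM with methionine, against 62.5, 59.8 and 54.2 CPM without it. The 6 groups other than darkness without methionine formed a chain of overlapping ranges between 77.8 and 106 CPM. Below them lay the mutant in darkness without methionine, then the WT in darkness without methionine, each apart from its neighbour in the order. The last gap was narrow, 62.7 against 62.5 CPM, and that difference between mutant and WT was not called (edgeR adjusted p = 0.35).

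The level of rgs1 stood out in darkness with methionine. In light, the mutant libraries had 77.5, 64.9 and 61.7 CPM with methionine and 56.6, 64.1 and 58.5 CPM without it. WT libraries in light had 55.6, 67.0 and 59.5 CPM with methionine, against 60.9, 62.9 and 67.1 CPM without it. Both pairs of groups in light overlapped. In darkness, the mutant libraries had 143, 138 and 141 CPM with methionine and 66.3, 47.6 and 53.2 CPM without it. WT libraries in darkness had 135, 162 and 145 CPM with methionine, against 49.5, 49.0 and 47.7 CPM without it. Thus the 6 libraries of darkness with methionine had 135 CPM or more and the other 18 had 77.5 CPM or less. Within that upper pair the mutant and WT groups overlapped, and each of the other 6 groups overlapped the next one in order. The widest relative spread within a group was that of rgs1 in the mutant in darkness without methionine, 55.7 ± 9.59 CPM (SD, n = 3).

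**Figure D2:**
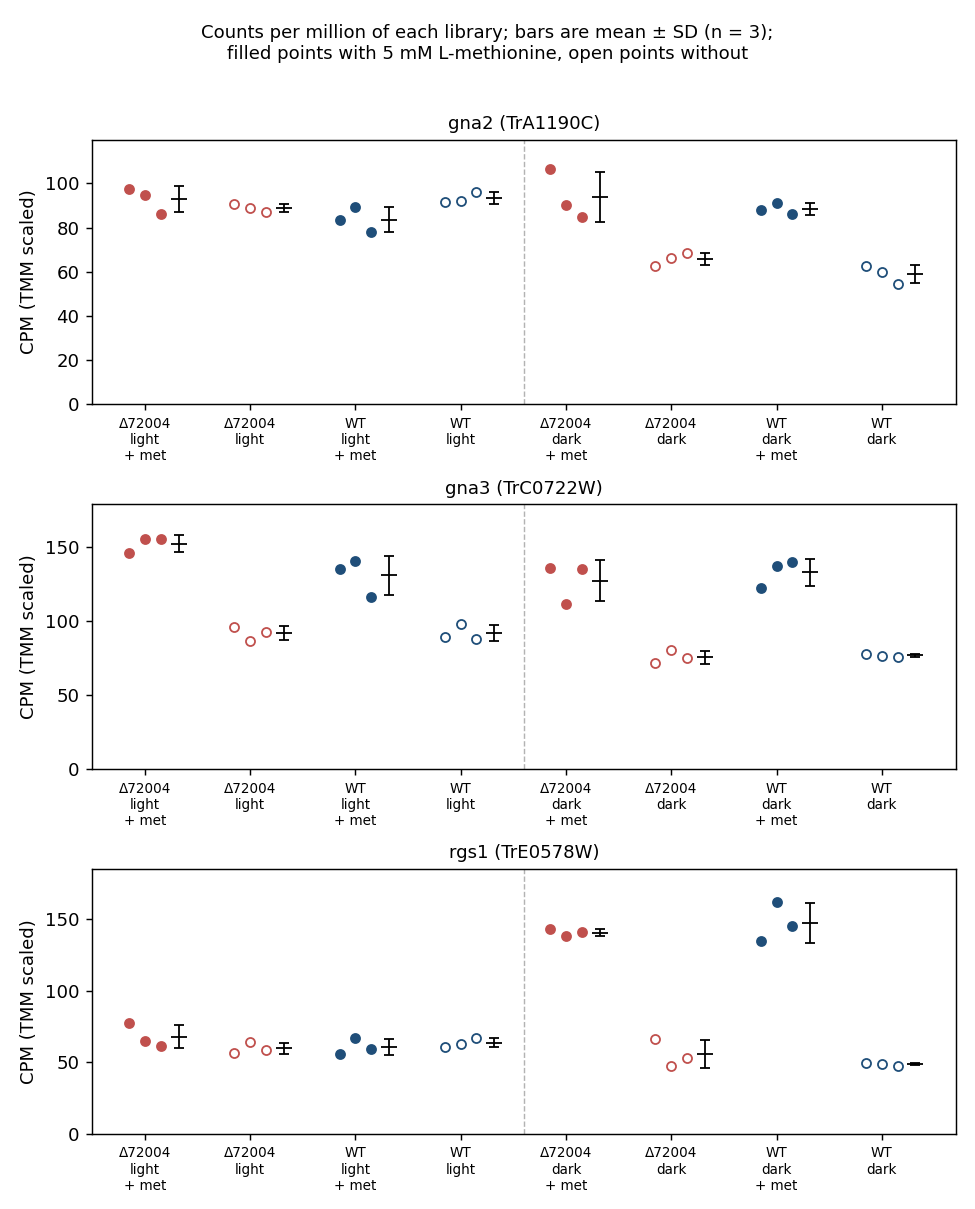
CPM of gna2, gna3 and rgs1 in each library (points; filled with methionine, open without; red mutant, blue WT), with mean ± SD of the 3 libraries of each group (bars) and a dashed line between light and darkness. gna3 is higher with methionine in both lightings, gna2 is lowest in darkness without methionine, and rgs1 is at 135 CPM or more in darkness with methionine and at 77.5 CPM or less elsewhere.

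The first question was how methionine changed the 3 genes in darkness. All of them rose with methionine in both genotypes, rgs1 most. In the mutant, gna2 rose 1.43-fold (log2 fold change 0.51, SE 0.08, edgeR adjusted p = 3.86e-06), gna3 1.69-fold (0.75, SE 0.08, adjusted p = 5.71e-08) and rgs1 2.53-fold (1.34, SE 0.10, adjusted p = 3.74e-10). In the WT, gna2 rose 1.50-fold (0.59, SE 0.08, edgeR adjusted p = 6.48e-07), gna3 1.73-fold (0.79, SE 0.08, adjusted p = 2.63e-08) and rgs1 3.03-fold (1.60, SE 0.11, adjusted p = 2.62e-11). The background of this comparison was broad. Of all tested models 77.3% in the mutant and 75.6% in the WT passed the same threshold in either direction, and 39.6% and 38.7% did so with higher values. By size the change of gna2 was larger than that of 38.0% of models in the mutant and 43.4% in the WT, and the change of gna3 larger than 51.3% and 53.3%, whereas that of rgs1 was larger than 71.2% in the mutant and 75.8% in the WT. The median log2 fold change of the 3 genes was 0.75 in the mutant and 0.79 in the WT, against 0.03 over all tested models in each genotype. That background median lies near 0 because models changed in both directions. Without regard to sign it was 0.73 in the mutant and 0.72 in the WT, near the values of the 3 genes. The quartiles of all models, −0.58 and 0.97 in the mutant and −0.60 and 0.92 in the WT, enclose the medians of the 3 genes.

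In light, gna3 was the member of the trio that rose with methionine, and for gna2 and rgs1 no change passed the threshold. In the mutant, gna3 rose 1.66-fold (log2 fold change 0.73, SE 0.08, edgeR adjusted p = 1.02e-07). There gna2 stood at 0.06 (95% interval −0.09 to 0.22, adjusted p = 0.465) and rgs1 at 0.19 (−0.03 to 0.41, adjusted p = 0.11). In the WT, gna3 rose 1.43-fold (0.51, SE 0.08, edgeR adjusted p = 1.47e-05), with gna2 at −0.16 (−0.32 to −0.0014, adjusted p = 0.069) and rgs1 at −0.07 (−0.29 to 0.15, adjusted p = 0.576). Without library 2 of the WT in light with methionine, the value of gna2 was −0.21 and passed the threshold (adjusted p = 0.0336). In light 71.7% of tested models in the mutant and 67.4% in the WT passed the threshold in either direction. Those with higher values made up 37.4% and 35.2%, and 1 rise among 3 genes is near that share. The median log2 fold change of the 3 genes was 0.19 in the mutant and −0.07 in the WT, against 0.03 and 0.02 over all tested models. Without regard to sign the medians were 0.19 and 0.16 for the 3 genes, against 0.60 and 0.53 over all tested models.

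These directions depend on the scaling in light. Scaling by library totals alone moved the median log2 fold change of all models with methionine to 0.29 for the mutant and 0.24 for the WT in darkness, and to 0.20 for the mutant and 0.21 for the WT in light. Under that scaling the WT values in light turned positive for gna2 (0.03) and rgs1 (0.12), both still below the median shift of all models, and the mutant values passed the threshold for gna2 (0.23, adjusted p = 0.00639) and rgs1 (0.36, adjusted p = 0.00902), 0.03 and 0.16 above that shift in size. The share of called models that were higher moved with it, to 65.0% from library totals against 51.2% from trimmed means for the mutant in darkness and to 62.7% against 51.2% for the WT in darkness. In light it was 63.3% against 52.1% for the mutant and 67.1% against 52.3% for the WT. All 4 rises of gna3 and the rises of gna2 and rgs1 in darkness kept their call under each scaling tried.

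**Figure D3:**
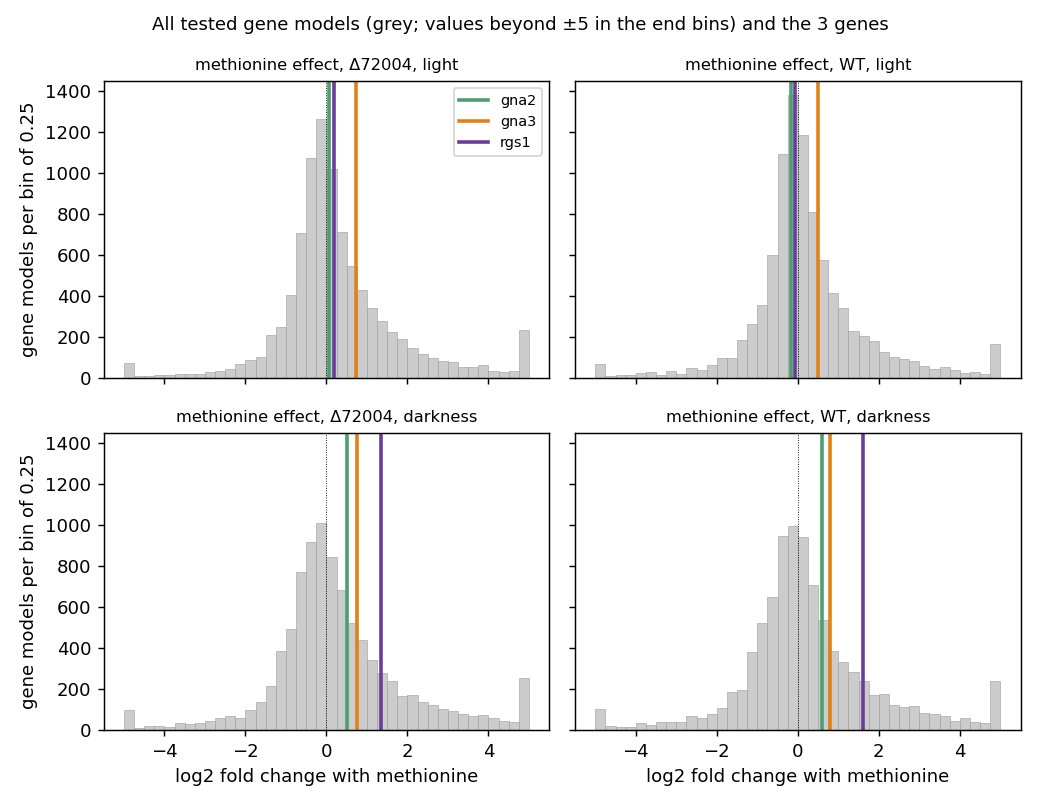
Distribution of the log2 fold change with methionine over all tested models (grey bars, models per bin of 0.25, values beyond ±5 in the end bins), with lines at gna2, gna3 and rgs1, for mutant and WT in light (top) and darkness (bottom). The 3 lines lie to the right of the centre in darkness, and in light those of gna2 and rgs1 lie near 0 while gna3 stays at 0.73 in the mutant and 0.51 in the WT.

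Whether the response to methionine differed between the lightings was tested as an interaction, with the log2 fold change in darkness subtracted from that in light. The difference was negative for rgs1, −1.15 in the mutant (SE 0.15, edgeR adjusted p = 2.36e-06) and −1.67 in the WT (SE 0.15, adjusted p = 1.56e-08). For gna2 it was −0.45 in the mutant (SE 0.11, adjusted p = 0.00182) and −0.75 in the WT (SE 0.11, adjusted p = 8.73e-06). The value of gna3 was −0.02 in the mutant (95% interval −0.26 to 0.22, adjusted p = 0.899) and −0.28 in the WT (−0.53 to −0.04, adjusted p = 0.0484). That WT call of gna3 is marginal: it was lost in 9 of 12 fits that left out 1 library, among them −0.21 without library 3 in light with methionine (adjusted p = 0.146), and passed only without library 1 of darkness with methionine, library 3 of light or library 2 of light with methionine. The call was also lost with the compared groups alone (−0.28, adjusted p = 0.0552) and without the filter on low counts (−0.28, adjusted p = 0.0549). In either direction 45.7% of tested models in the mutant and 49.6% in the WT passed the threshold, 23.3% and 25.3% with negative values. Averaged over both genotypes, the interaction was −1.41 for rgs1 (SE 0.10, adjusted p = 4.15e-10), −0.60 for gna2 (SE 0.08, adjusted p = 9.74e-07) and −0.15 for gna3 (−0.32 to 0.02, adjusted p = 0.115), with 60.6% of all models called. Without library 2 of the mutant in darkness with methionine the average for gna3 was −0.20 and passed (adjusted p = 0.0296).

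Light was next set against darkness within each medium. These comparisons use the same libraries as those with methionine, and each also compares the separate runs of library numbers. Without methionine, the genes stood higher in light where a difference was called. In the mutant, gna2 was 1.35-fold higher in light (log2 fold change 0.44, SE 0.08, edgeR adjusted p = 4.78e-05) and gna3 1.21-fold higher (0.28, SE 0.08, adjusted p = 0.00585), with rgs1 at 0.10 (95% interval −0.12 to 0.32, adjusted p = 0.417). Without library 1 of the mutant in darkness the value of rgs1 was 0.24 (adjusted p = 0.0389), and without library 2 it was −0.0012. In the WT, gna2 was 1.59-fold higher in light (0.67, SE 0.08, edgeR adjusted p = 2.06e-07), gna3 1.20-fold (0.26, SE 0.08, adjusted p = 0.00968) and rgs1 1.31-fold (0.39, SE 0.11, adjusted p = 0.00322). The call of gna3 was lost without library 2 of the WT in light (0.21, adjusted p = 0.0525). That of rgs1 was lost when the replicate number was fitted as a block (0.33, edgeR adjusted p = 0.0576). Of all tested models 62.4% in the mutant and 64.8% in the WT passed in either direction, 31.8% and 32.5% with higher values.

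With methionine present, rgs1 was lower in light than in darkness. The fall was 2.07-fold in the mutant (log2 fold change −1.05, SE 0.10, edgeR adjusted p = 8.19e-08) and 2.43-fold in the WT (−1.28, SE 0.10, adjusted p = 5.14e-09). For gna2 the difference was −0.01 in the mutant (95% interval −0.17 to 0.14) and −0.08 in the WT (−0.24 to 0.08), neither past the threshold. The gna3 gene was 1.20-fold higher in light in the mutant (0.26, SE 0.08, adjusted p = 0.0145), and stood at −0.03 in the WT (−0.20 to 0.14, adjusted p = 0.838). Without library 2 of the mutant in darkness with methionine, whose 111 CPM lay below the 135 and 136 CPM of the other two, the mutant value of gna3 was 0.17 and no longer passed (adjusted p = 0.112), nor did it with the compared groups alone (0.27, adjusted p = 0.0521). The background was 40.7% of tested models in the mutant and 39.1% in the WT, and by size the change of rgs1 exceeded that of 86.0% of models in the mutant and 89.1% in the WT. The sign of the light effect on rgs1 in the WT was thus positive without methionine and negative with it, the same difference that the interaction tests. The positive WT value lost its call in the fit with a replicate block, and the mutant value without methionine, 0.10, was not called.

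Between mutant and WT no change was called in any of the 3 genes. The 12 log2 fold changes ran from −0.09 to 0.22. In light with methionine, where 0.344% of all tested models were called, gna3 averaged 153 ± 5.79 CPM in the mutant and 131 ± 12.9 CPM in the WT (SD, n = 3 each). The difference of 0.22 (95% interval 0.05 to 0.39) had an edgeR adjusted p of 0.344 and was not called. In the same condition gna2 stood at 0.15 (−0.0056 to 0.31) and rgs1 at 0.17 (−0.05 to 0.38). In light without methionine, with 0.15% of models called, the values were −0.07 for gna2 (−0.23 to 0.09), −2.2e-05 for gna3 (−0.17 to 0.17) and −0.09 for rgs1 (−0.31 to 0.13). The gna2 groups averaged 88.9 ± 1.80 CPM in the mutant and 93.4 ± 2.59 CPM in the WT here.

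In darkness with methionine, with 0.537% of models called, the deletion values were 0.08 for gna2 (95% interval −0.07 to 0.24), −0.06 for gna3 (−0.23 to 0.11) and −0.07 for rgs1 (−0.28 to 0.15). Mutant and WT libraries of equal number deviated together in this condition, and a fit of those groups alone with the replicate number as a block called 521 models, against 12 from the same groups without the block and 50 from the fit of all groups, again without any of the 3 genes (0.07, −0.07 and −0.07 for gna2, gna3 and rgs1, edgeR adjusted p = 0.598, 0.635 and 0.585). In darkness without methionine, with 0.204% of models called, gna2 stood at 0.16 (0.001 to 0.32, adjusted p = 0.35), gna3 at −0.02 (−0.19 to 0.15) and rgs1 at 0.19 (−0.03 to 0.41). Leaving out 1 library moved this rgs1 value between 0.05, without library 1 of the mutant, and 0.30, without library 2 of the mutant. In this condition gna2 averaged 65.8 ± 2.85 CPM in the mutant and 58.8 ± 4.20 CPM in the WT. The mean deletion effect over the 4 conditions was 0.08 for gna2 (0.0029 to 0.16), 0.03 for gna3 (−0.05 to 0.12) and 0.05 for rgs1 (−0.06 to 0.16), none called, with 1.03% of models called. The largest change inside these intervals is 1.12-fold, for gna2 and rgs1. DESeq2 called none of these values either.

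**Figure D4:**
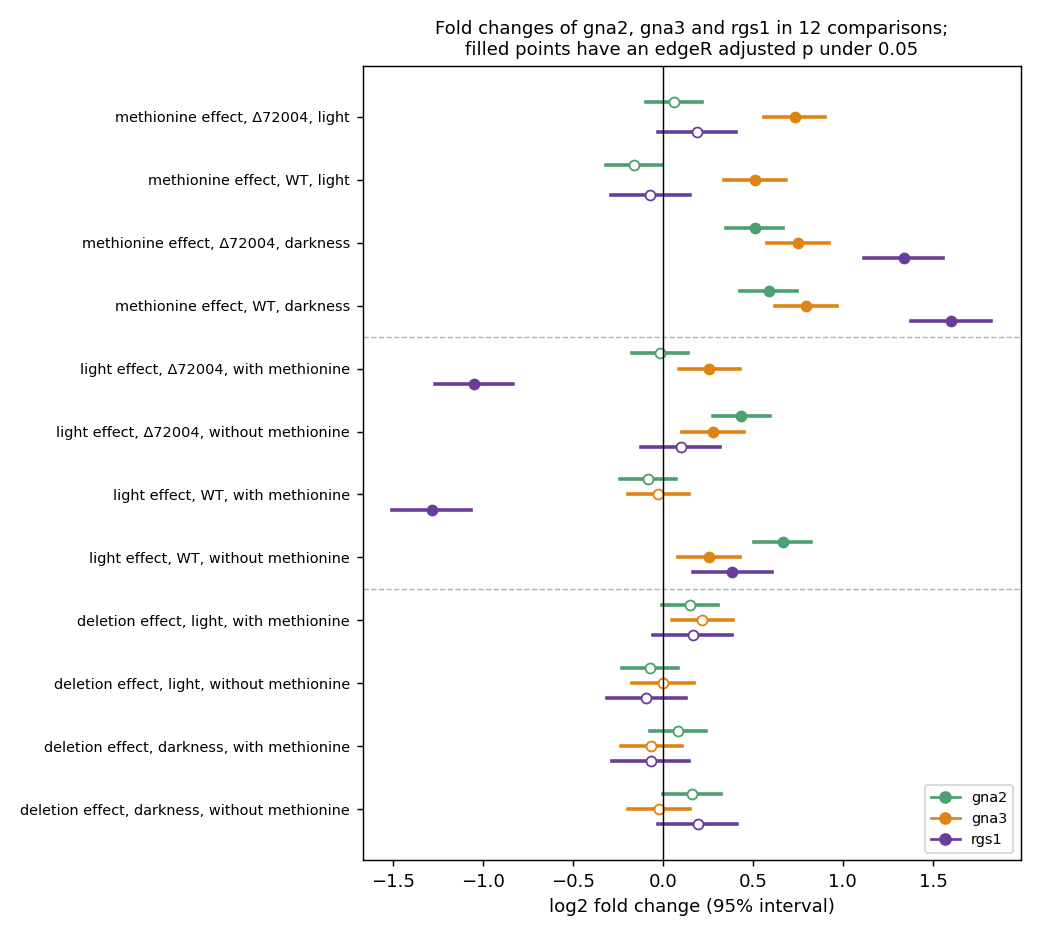
Log2 fold changes of gna2 (green), gna3 (orange) and rgs1 (purple) with 95% intervals in the 4 methionine, 4 light and 4 deletion comparisons; filled points have an edgeR adjusted p under 0.05. rgs1 is at 1.34 and 1.60 with methionine in darkness and at −1.05 and −1.28 in light with methionine, and none of the 12 deletion values is filled.

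Whether the responses differed between mutant and WT was tested as an interaction, which cannot separate the deleted gene from the difference at TrC0447C. The methionine response of the mutant minus that of the WT was 0.22 for gna2 (95% interval −0.0009 to 0.44), 0.22 for gna3 (−0.02 to 0.46) and 0.26 for rgs1 (−0.05 to 0.56) in light, and −0.08 (−0.30 to 0.15), −0.04 (−0.28 to 0.20) and −0.26 (−0.57 to 0.05) in darkness. None passed the threshold. Across all tested models 0.0322% (3 models) passed in light and 0.043% (4 models) in darkness. The deletion effect in light minus that in darkness ran from 0.07 to 0.28 with methionine and from −0.28 to 0.02 without it, and none of the 6 values was called. With methionine, 0 models (0%) were called by edgeR, 611 had an unadjusted p under 0.05 and DESeq2 called 20, and without methionine 0.0537% were called. At this depth and with 3 libraries a group, a difference in response as large as 1.48-fold for rgs1 in either lighting lies inside the intervals.

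Ratios within a library do not depend on how libraries are scaled, and they set the regulator and alpha subunit transcripts against each other. In darkness, counts per kb of rgs1 over those of gna3 were 0.735 to 0.876 with methionine and 0.417 to 0.653 without it in the mutant. In the WT in darkness they were 0.731 to 0.835 with methionine and 0.444 to 0.450 without it. In light the order was turned round. There the ratio was 0.279 to 0.374 with methionine and 0.415 to 0.522 without it in the mutant, and 0.289 to 0.360 with methionine and 0.452 to 0.537 without it in the WT. The groups with and without methionine did not overlap in any of the 4 settings, so methionine went with more rgs1 relative to gna3 in darkness and less in light. In light, gna3 was called higher with methionine in both genotypes, and no change of rgs1 itself was called. Against gna2 there was no such fall in light: rgs1 over gna2 was 0.481 to 0.559 with methionine and 0.439 to 0.506 without it in the mutant, and 0.468 to 0.537 with methionine and 0.468 to 0.490 without it in the WT, with overlapping groups.

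The 2 alpha subunit transcripts also shifted against each other. In light, gna3 over gna2 per kb was 1.49 to 1.80 with methionine and 0.970 to 1.06 without it in the mutant, and 1.49 to 1.62 with methionine and 0.912 to 1.06 without it in the WT. Without methionine the alpha subunits were thus near equal in light. In darkness the ratio was 1.23 to 1.59 with methionine and 1.09 to 1.21 without it in the mutant. In the WT in darkness it was 1.389 to 1.62 with methionine and 1.25 to 1.391 without it, so that these groups overlapped. The regulator exceeded gna2 per kb in darkness with methionine in the WT, at 1.08 to 1.25, straddled it in the mutant (0.947 to 1.17) and lay below it in the other groups. These ratios were chosen after the values were seen and are given without a test.

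**Figure D5:**
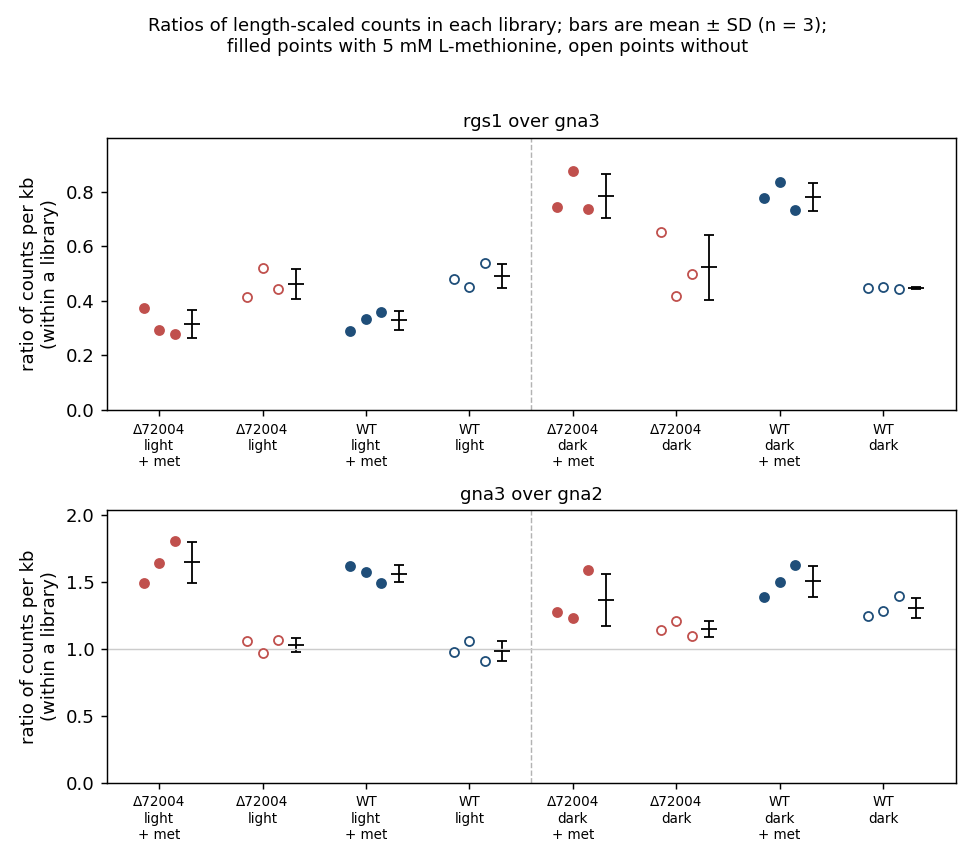
Ratio of counts per kb of rgs1 over gna3 (top) and gna3 over gna2 (bottom) in each library (points; filled with methionine, open without; red mutant, blue WT), with mean ± SD (n = 3). Methionine goes with a higher rgs1 over gna3 ratio in darkness and a lower one in light, and gna3 over gna2 is near 1 in light without methionine.

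Of 24 listed symbols of G-protein and cAMP signalling, 8 stand in the reference table and 5 were linked to tested models: the 3 genes and the protein kinase A genes pkac2, which encodes a catalytic subunit, and pkar1, which encodes the regulatory subunit. The alpha subunit gene gna1, the adenylate cyclase gene acy1 and pkac1 were not linked and are not analysed here. In darkness all 5 rose with methionine in both genotypes, where 39.6% of all tested models in the mutant and 38.7% in the WT were called higher. In light, pkac2 rose in the mutant (log2 fold change 1.04) and the WT (1.22), and pkar1 in the mutant (0.46) and the WT (0.25, edgeR adjusted p = 0.00748), so that 3 of the 5 were called higher in each genotype, against 37.4% of all tested models in the mutant and 35.2% in the WT. The call of pkar1 in the WT in light was lost in 2 of 6 fits that left out 1 library, with a lowest value of 0.17, and when the compared groups alone were fitted (0.24, adjusted p = 0.101). In none of the 4 deletion comparisons within a single condition was any of the 5 called, where at most 0.537% of all tested models were. The light perception list gave 1 linked gene of 9 listed, blr2, whose product is part of the blue light receptor complex. It fell with methionine in light (−1.19 in the mutant, −0.99 in the WT) and in darkness (−0.62 and −0.61). No listed MAP kinase gene was linked.

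Across the 24 libraries, which share groups and runs of library numbers, the 3 genes were only moderately alike in log2 CPM. Pearson's r was 0.68 between gna2 and gna3, 0.57 between gna3 and rgs1 and 0.52 between gna2 and rgs1. Between any pair of them, 1257 to 2904 other models were more like one gene than the other of the pair was. The closest models to gna3 were TrF1192C (TRIREDRAFT_5366, r = 0.979), TrA2128C (0.974) and TrC0957C (TRIREDRAFT_21450, 0.971), all higher with methionine in both lightings. The closest to gna2 were TrA0326W (TRIREDRAFT_60123, 0.935), TrD0997W (TRIREDRAFT_121107, 0.931) and TrD0913C (TRIREDRAFT_103366, 0.925). Like gna2 they rose with methionine in darkness and were not called in light, as with TrD0913C at 25.5 CPM with methionine and 6.21 CPM without it in the mutant in darkness. The closest to rgs1 were TrF0193C (TRIREDRAFT_109344, 0.958), TrC0149C (0.952) and TrE1255W (0.951). TrF0193C had 161 to 311 counts in each library of darkness with methionine and at most 1 count in any other library. By group means in place of libraries the closest model to gna3 was again TrF1192C (0.993), while the models named for gna2 ranked 22, 2 and 5 and those named for rgs1 ranked 16, 2 and 24. By rank correlation over libraries none of these 9 models came first. Those named for gna3 then ranked 11, 27.5 and 62.5, and those for gna2 ranked 87.5, 105 and 175.5. For rgs1 the ranks were 699, 369 and 74, so its closest models depend on the measure of likeness.

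Of the 6 tested models next to the 3 genes, 1 rose with methionine in darkness as its gene did, TrE0576C beside rgs1. Among all tested models, 39.6% in the mutant and 38.7% in the WT were called higher in darkness, and 37.7% and 36.9% lower. On either side of gna2, TrA1187C fell (log2 fold change −0.85 in the mutant, −0.91 in the WT) and so did TrA1192W (−0.50 and −0.34). Beside gna3, TrC0721C fell (−0.86 and −0.74), and TrC0723W stood at 0.14 and 0.09, not called. TrE0576C, 18526 bases before rgs1, rose with it, to 458 CPM with methionine against 43.3 CPM without it in the mutant and to 468 CPM against 36.6 CPM in the WT. In contrast to rgs1 it also rose in light (3.05 in the mutant, 2.80 in the WT). TrE0579W begins 2037 bases after rgs1 on the same strand and fell in darkness to 11.1 CPM with methionine against 927 CPM without it in the mutant, and to 13.8 CPM against 1255 CPM in the WT.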

How the data were processed

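RNA of 24 mycelium samples was sequenced, per the labels' protocols, from stranded libraries after rRNA depletion. The authors deposited whole-number counts, one value per gene model and library, from featureCounts 2.0.1 run on read pairs with the reverse strand setting, per the file headers. HISAT2 2.2.1 is named in the submitters' processing notes, and other upstream steps are not given in the sources used here. A second deposited file holds a literature reference and was not used. With stranded counting, reads of an antisense partner were kept apart, while reads shared between similar genes of a family can be split or lost.

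All 24 libraries were fitted together with edgeR 4.0.16 (R 4.3.3) as 8 groups, with trimmed mean (TMM) factors of 0.877 to 1.11, a minimum count of 10 for filtering, the quasi-likelihood test and Benjamini-Hochberg adjustment over all 9308 tested models at 0.05. CPM are counts scaled to a common library total with the TMM factors, and log2 CPM used a prior count of 2. The common coefficient of biological variation was 0.133. Alternatives were other scalings, other filters, DESeq2 1.42.0, fits of the compared groups alone, a replicate block and leaving out each library. The edgeR step was tested on simulated data.

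The labels number libraries 1 to 3 within each group. The residuals of equally numbered libraries correlated above 0.1 in all 3 pairs for 1 of 28 pairs of groups, the mutant and WT in darkness with methionine (0.369, 0.136 and 0.475). For that pair of groups alone the data hint at a pairing by number, which the labels do not state. The main fit used no replicate block, so its values for that condition leave the pairing out. A replicate block was fitted among the alternatives only.

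The count table shares 0 identifiers with the reference table (v2.0), which holds 9116 genes, 235 with a symbol. Models were linked where their span and the spans of at least 3 of up to 6 neighbours on each side were identical, which linked 4012 models (36.9%), 40 of them with a symbol. With 20 shuffled tables at most 1 model was linked. The reference table has no product text, so lists were applied by symbol alone. The genes, lists and tests were chosen with earlier results of these data known. Beside the 3 genes, the text names the deleted gene's model, linked and tested list members, the nearest tested neighbours and the 3 models most like each gene; TrC0447C was named after its values were seen.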

Additional observations from a re-analysis of the deposited data

Results flagged for a closer look

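The response of a gene to methionine differed between light and darkness in these tests of the interaction (light minus darkness, log2 scale, edgeR). For rgs1 the difference was −1.15 in the mutant, −1.67 in the WT and −1.41 as the mean of both genotypes, where methionine went with 68.0 ± 8.35 CPM in light and 141 ± 2.35 CPM in darkness in the mutant. For gna2 it was −0.45 in the mutant, −0.75 in the WT and −0.60 as the mean. For gna3 it was −0.28 in the WT, with the marginal call described above. In these comparisons lighting and anything that goes with the runs of library numbers cannot be told apart. Groups of 3 libraries are too small for a test of outlying libraries.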

How the results depend on the processing

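Of 60 values of gna2, gna3 and rgs1, 23 were called, and 19 of these kept their call and direction under every alternative. None of the called values reversed. The 4 that lost a call somewhere were the light effects on gna3 in the mutant with methionine and the WT without it, the light effect on rgs1 in the WT without methionine, and the methionine by lighting interaction of gna3 in the WT. RLE size factors, DESeq2 and a minimum count of 50 left all 60 on their side of the threshold. The cause of the changes was not tested.

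Library totals alone gave 0.23 for the methionine effect on gna2 and 0.36 on rgs1 in the mutant in light (both now called), 0.031 on gna2 and 0.12 on rgs1 in the WT in light (sign turned), and −0.21 for the mean interaction of gna3 (now called). The deletion effect on gna3 in light without methionine, near 0, turned positive with library totals (0.021), upper quartile factors (0.0048) and the replicate block (0.0023). With the compared groups alone, the light effect on gna3 in the mutant with methionine was 0.27 (adjusted p = 0.0521) and the WT interaction of gna3 −0.28 (0.0552). That interaction was −0.28 without the filter (0.0549) too. With the replicate block these were 0.28 (0.0574) and −0.28 (0.0725), and the light effect on rgs1 in the WT without methionine was 0.33 (0.0576). The block changed no other call of the 3 genes.

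Leaving out 1 library in turn, the light effect on gna3 ran from 0.17 to 0.31 in the mutant with methionine, from 0.21 to 0.29 in the WT without it and from −0.081 to 0.054 in the WT with it. The gna3 interaction of methionine with lighting ran from −0.11 to 0.028 in the mutant, −0.34 to −0.21 in the WT and −0.20 to −0.11 on average. The methionine effect on gna2 in the WT in light ran from −0.21 to −0.11, the light effect on gna2 in the mutant with methionine from −0.083 to 0.085 and that on rgs1 in the mutant without it from −0.0012 to 0.24. Deletion values that changed sign were those in darkness with methionine (gna2 −0.014 to 0.15, gna3 −0.12 to 0.025, rgs1 −0.13 to 0.0090), gna3 in darkness without it (−0.067 to 0.018) and in light without it (−0.034 to 0.049). Interactions that did so were deletion by lighting of gna2 with methionine (−0.0020 to 0.17) and of gna3 without it (−0.018 to 0.069) and methionine by genotype of gna3 in darkness (−0.098 to 0.045).

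Counts of called models were unstable where few were called. DESeq2 called 107 models for the deletion in light with methionine, 249 in light without it, 115 in darkness with it, 146 in darkness without it and 278 on average. It called 20 for deletion by lighting with methionine, 80 without it, and for methionine by genotype 58 in light and 32 in darkness. The compared groups alone gave 7, 2, 12 and 3 for the 4 deletion effects in the same order and 0 for methionine by genotype in light, and the 2 dark groups with methionine and a block gave 521. The replicate block gave 20 for the deletion in light with methionine, 6 in darkness without it, 61 on average, 2 for deletion by lighting without methionine and 2 for methionine by genotype in darkness. Library totals gave 39 for the deletion in darkness without methionine and 16 for deletion by lighting without it, upper quartile factors 10 for that interaction and 7 for methionine by genotype in darkness, no filter 11 for the deletion in darkness without methionine, and a minimum count of 50 gave 6 for methionine by genotype in light. With 1 library left out, deletion calls ran from 15 to 83 in light with methionine, 5 to 312 in light without it, 16 to 56 in darkness with it, 5 to 58 in darkness without it and 44 to 271 on average, those of deletion by lighting from 0 to 17 with methionine and 2 to 46 without it, and those of methionine by genotype from 0 to 31 in light and 1 to 22 in darkness. The alternative link by protein length was not run.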
